A study of Mus musculus with 44 samples.

Results

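The CC chemokines described here were 9 genes taken by name from the 55486 genes of the count table: Ccl2, Ccl5, Ccl7, Ccl8, Ccl11, Ccl17, Ccl20, Ccl22 and Ccl25. All 9 were found, each as 1 row, and all 9 passed the filter on low counts that left 16601 genes for the tests. They were measured by mRNA sequencing of fibroblasts sorted as EpCAM-, CD49f-, CD31- and CD45- cells from En1-Cre;mTmG mice, in which GFP marks cells that descend from En1-expressing cells. The mice had received mammary tissue of donors that the labels call wildtype (control), WB1P donors (WapCre;Brca1F/F;Trp53F/F) or WB1P-Myc donors, which also carry a Cre-inducible Myc allele. Such control donors are described in the study as Cdh1F/F;PtenF/F animals without WapCre. In the tumor donors Cre is driven by the Wap promoter of the mammary epithelium, and the recipients' own fat pads were not cleared. The study describes the tumors as end stage, the control glands were age-matched to them, and En1-Cre and mTmG were carried by the recipients of all 3 conditions. Fibroblasts of control glands (normal fibroblasts, NFs) and of tumors (cancer-associated fibroblasts, CAFs) were each sorted by GFP and by CD26, a surface peptidase encoded by Dpp4, into En1+, double- (both CD26-), CD26+ and double+ (both CD26+) populations. The 44 libraries came from 13 mice, 3 control, 5 WB1P and 5 WB1P-Myc, and 2 of the WB1P-Myc mice (mice 4 and 5) were marked 8x8 in the labels, which as a tumor size in millimeters would be the study's advanced rather than its end stage. The control labels give a pair of animal numbers each, which may stand for pooled mice, and every such pair entered as 1 mouse.

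CC chemokines are small secreted proteins that draw leukocytes towards their source through G protein-coupled receptors on the leukocyte surface. Ccl2, Ccl7 and Ccl8 are known as attractants of monocytes, Ccl11 (eotaxin) of eosinophils, Ccl5 of T cells and monocytes, Ccl17 and Ccl22 of T cells that carry Ccr4, Ccl20 of cells that carry Ccr6, and Ccl25 of cells that carry Ccr9. Fibroblasts are a known source of several of them in inflamed tissue, and CD26 is a peptidase that can trim the N-terminus of some chemokines.

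Counts of the libraries of 1 mouse and CD26 class were added up, so that the mouse was the unit, and are given as CPM, the counts scaled by the TMM-adjusted library total. This gave 25 sums, 3 control sums in each class, 5 WB1P CD26- and 4 WB1P CD26+ sums, and 5 WB1P-Myc sums in each class. A gene was called at an adjusted p under 0.05 in edgeR's quasi-likelihood test. The 44 libraries held 5790599 to 15240328 counts (median 12818093). Dpp4 had a mean of 4.87 CPM in CD26- and 527 CPM in CD26+ control fibroblasts, 5.04 and 419 CPM in WB1P, and 7.78 and 410 CPM in WB1P-Myc. The summed fibroblast markers (Col1a1, Col1a2, Pdgfra, Pdgfrb, Dcn and Lum, all 6 with counts in every group) were between 19762 and 56467 CPM. The summed macrophage and monocyte markers (10 genes) were at most 18.7 CPM in any control sum, and ranged from 16.6 to 97.0 CPM in WB1P CD26-, from 18.5 to 36.8 CPM in WB1P CD26+, from 13.4 to 118 CPM in WB1P-Myc CD26- and from 10.5 to 33.6 CPM in WB1P-Myc CD26+ sums. In bulk RNA, more cells of a kind and more RNA per cell cannot be told apart.

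Per length, the CC chemokines of these fibroblasts fell into an abundant and a rare set. With the mean CPM divided by the merged exon length in kb, Ccl2 stood at 283 ± 83.9 (SD, n = 3) in control CD26- fibroblasts, Ccl11 at 267 ± 69.4, Ccl7 at 150 ± 74.2 and Ccl8 at 15.4 ± 8.70 CPM per kb. Ccl25 at 0.825 ± 0.289, Ccl5 at 0.243 ± 0.0824, Ccl17 at 0.0689 ± 0.0712, Ccl22 at 0.0489 ± 0.0446 and Ccl20 at 0.0163 ± 0.0141 CPM per kb followed. The ranges over mice overlapped among Ccl2, Ccl11 and Ccl7 and among Ccl17, Ccl22 and Ccl20, and did not overlap between the other neighbours in this order. In control CD26+ fibroblasts Ccl2 led too, and Ccl11 and Ccl7 followed at 216 and 215 CPM per kb. Ccl2 and Ccl7 led in both tumor models and CD26 classes, ahead of Ccl11, with 1583 ± 539 and 1345 ± 244 CPM per kb (n = 4) in WB1P CD26+ fibroblasts. The 4 abundant genes lie in 1 cluster on chromosome 11 (Ccl2, Ccl7, Ccl11 and Ccl8, chr11:82035571-82116799 on GRCm38, 81.2 kb). Ccl5 lies farther along the same chromosome (chr11:83525778-83530518), and Ccl22 and Ccl17 lie near each other on chromosome 8 (chr8:94745590-94812036, 66.4 kb).

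**Figure D1:**
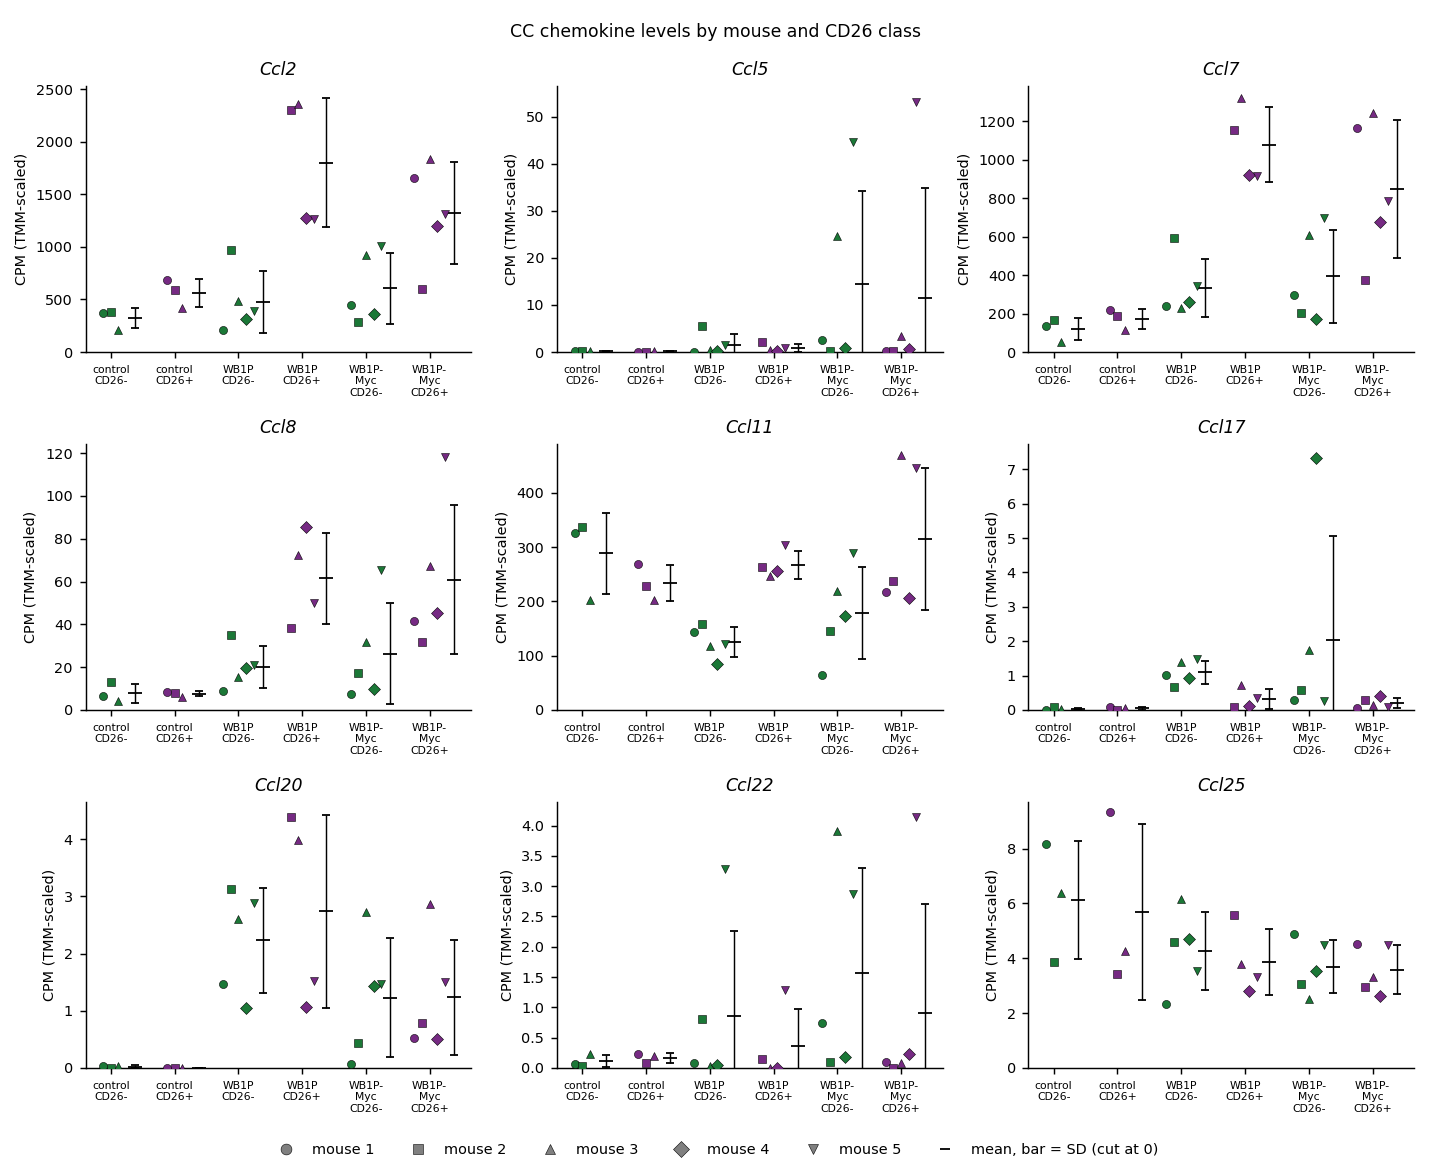
Levels of the 9 CC chemokines in CPM (y axis, linear, 1 scale per gene) in each mouse, by condition and CD26 class (x axis), green for CD26- and purple for CD26+. Symbols are single mice, and the black mark and bar are the mean and SD over mice. Ccl7 was higher in every tumor sum than in every control sum of its class, whereas the mean of Ccl5 in WB1P-Myc rests on mice 3 and 5.

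Of the monocyte attractants, Ccl7 was higher in both tumor models and both CD26 classes, Ccl8 was called higher in all but WB1P CD26- CAFs, and Ccl2 in CD26+ CAFs. Ccl7 was at 138, 169 and 53.9 CPM in control CD26- mice 1 to 3. In WB1P CD26- fibroblasts it was at 239, 591, 230, 260 and 342 CPM in mice 1 to 5. In WB1P-Myc CD26- fibroblasts it was at 295, 203, 611, 172 and 696 CPM. No tumor mouse overlapped a control mouse, and WB1P mouse 2 and WB1P-Myc mice 3 and 5 were highest. The log2 fold change (FC) over control was 1.47 (SE 0.48, adjusted p = 0.0218, edgeR) for WB1P and 1.72 (SE 0.49, adjusted p = 0.00925) for WB1P-Myc. Without control mouse 3 these were 1.12 (adjusted p = 0.119) and 1.37 (adjusted p = 0.0623), and without WB1P mouse 2 the WB1P value was 1.13 (adjusted p = 0.0701), so that the calls rest on these mice. In CD26+ fibroblasts Ccl7 was at 216, 187 and 114 CPM in control, at 1153, 1319, 922 and 916 CPM in WB1P mice 2 to 5, and at 1165, 375, 1242, 675 and 783 CPM in WB1P-Myc mice 1 to 5. Again no tumor mouse overlapped control, with a log2 FC of 2.64 (SE 0.53, adjusted p = 0.000827) for WB1P and of 2.30 (SE 0.51, adjusted p = 0.00179) for WB1P-Myc, and both calls were kept in all 22 alternatives.

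Ccl2 was at 681, 587 and 421 CPM in control CD26+ mice 1 to 3 and at 2304, 2361, 1276 and 1265 CPM in WB1P mice 2 to 5. The groups did not overlap, and Ccl2 rose with a log2 FC of 1.68 (SE 0.50, adjusted p = 0.0135, edgeR). Without control mouse 3 the adjusted p was 0.0675. WB1P-Myc CD26+ mice stood at 1658, 596, 1839, 1200.5 and 1317 CPM, and mouse 2 lay inside the control range. The log2 FC was 1.23 (SE 0.48) with an adjusted p of 0.0483, and this call was lost in 14 of 22 alternatives, 10 of them the leaving out of a single mouse (the 3 control mice, WB1P mice 3, 4 and 5, and WB1P-Myc mice 1, 3, 4 and 5), with adjusted p up to 0.162. In CD26- fibroblasts Ccl2 was at 375, 379 and 212 CPM in control, and 1 of 5 WB1P and 2 of 5 WB1P-Myc mice stood far above it. These were WB1P mouse 2 at 972 CPM and WB1P-Myc mice 3 and 5 at 927 and 1009 CPM, and the other tumor mice ranged from 212 to 483 CPM. The log2 FC was 0.56 (95% interval -0.40 to 1.52) for WB1P and 0.91 (-0.06 to 1.88) for WB1P-Myc, neither called.

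Ccl8 was at 8.60, 7.70 and 6.25 CPM in control CD26+ fibroblasts. It was at 38.5, 72.2, 85.5 and 50.2 CPM in WB1P mice 2 to 5 and at 41.4, 31.8, 67.3, 45.5 and 118 CPM in WB1P-Myc mice 1 to 5. Every CD26+ tumor sum was above every control sum, with a log2 FC of 3.03 (SE 0.66, adjusted p = 0.0016, edgeR) for WB1P and 3.02 (SE 0.64, adjusted p = 0.00142) for WB1P-Myc, and both calls were kept in all 22 alternatives. In CD26- fibroblasts it was at 6.38, 12.9 and 4.34 CPM in control, at 8.76, 35.1, 15.5, 19.4 and 21.2 CPM in WB1P and at 7.55, 17.5, 31.6, 9.65 and 65.2 CPM in WB1P-Myc. WB1P mouse 1 and WB1P-Myc mice 1 and 4 lay inside the control range. The log2 FC was 1.35 (SE 0.59, adjusted p = 0.0797) for WB1P, which came to an adjusted p of 0.0304 without WB1P-Myc mouse 5, a mouse outside this comparison. For WB1P-Myc it was 1.74 (SE 0.60, adjusted p = 0.0277). It was 1.07 (adjusted p = 0.0906) without WB1P-Myc mouse 5 and 1.27 (adjusted p = 0.0746) without both 8x8 mice. The adjusted p was 0.0517 without mouse 3, 0.102 without control mouse 1 and 0.135 without control mouse 3. In limma with the mouse as a block, a change of test as well, it was 0.0644.

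**Figure D2:**
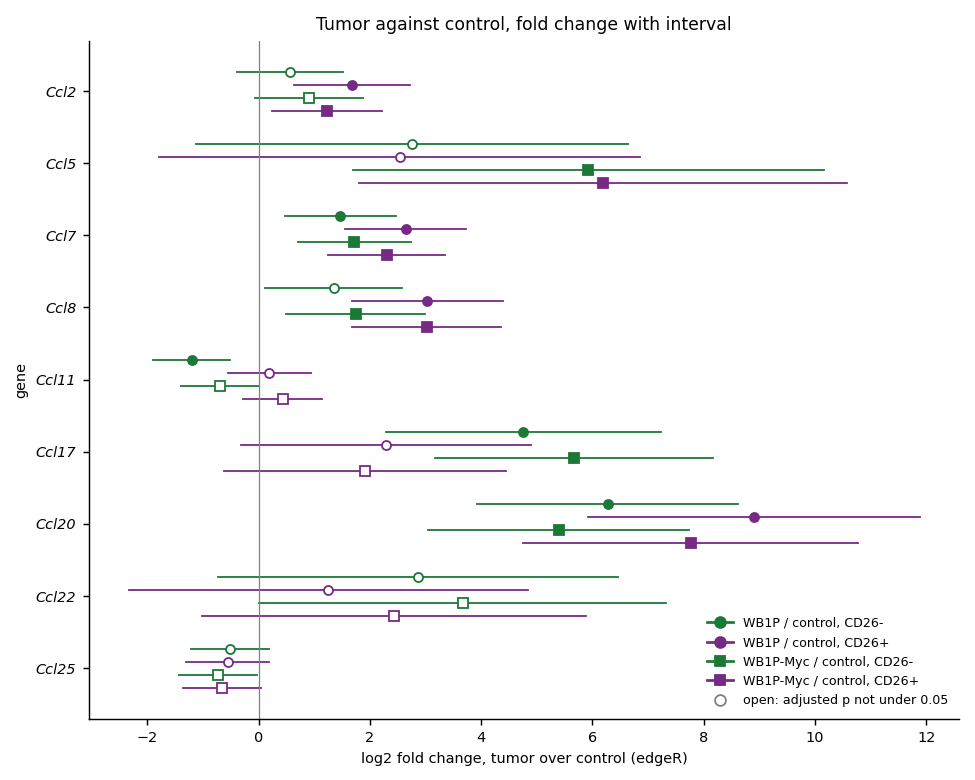
Fitted log2 FC of tumor over control (x axis) for each CC chemokine (y axis), with lines for the 95% interval of edgeR's test before adjustment. Circles are WB1P and squares WB1P-Myc, green is CD26- and purple CD26+, and open symbols were not called. Ccl7 and Ccl20 are filled in all 4 comparisons, and the values of Ccl17 and Ccl20 against control groups with almost no counts are fitted values and no bounds.

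Eotaxin went the other way. Ccl11 was at 326, 337 and 202 CPM in control CD26- fibroblasts and at 143, 158, 118, 85.5 and 121 CPM in WB1P mice 1 to 5, so that every WB1P mouse was below every control mouse. It fell by 1.21 on the log2 scale (SE 0.33, adjusted p = 0.00739, edgeR), a call kept in all 22 alternatives, and was the only one of the 9 genes called lower than control. In WB1P-Myc CD26- fibroblasts it was at 63.7, 146, 220, 173 and 290 CPM, and mice 3 and 5 lay inside the control range. The log2 FC was -0.69 (SE 0.34, adjusted p = 0.108), and -0.94 (adjusted p = 0.0314) without WB1P-Myc mouse 5. In CD26+ fibroblasts Ccl11 was at 270, 228 and 203 CPM in control, at 263, 247, 255 and 303 CPM in WB1P and at 217, 238, 469, 206 and 446 CPM in WB1P-Myc, with log2 FC of 0.19 (95% interval -0.55 to 0.93) and 0.43 (-0.28 to 1.15).

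Ccl20 was almost absent from control fibroblasts and was above 3 counts in every tumor sum but that of WB1P-Myc CD26- mouse 1. The 12 control libraries held at most 1 count of Ccl20 each, so that both control groups were at the floor of 3 counts per sum. It was at 1.47, 3.13, 2.60, 1.05 and 2.88 CPM in WB1P CD26- mice 1 to 5 and at 4.38, 3.98, 1.06 and 1.52 CPM in WB1P CD26+ mice 2 to 5. In WB1P-Myc it was at 0.0740, 0.429, 2.73, 1.43 and 1.46 CPM in CD26- and at 0.514, 0.778, 2.87, 0.506 and 1.5 CPM in CD26+ fibroblasts. Against the floor, Ccl20 was at least 21.0-fold higher in WB1P CD26- and 25-fold higher in WB1P CD26+ fibroblasts (adjusted p = 0.000251 and 0.000164, edgeR). In WB1P-Myc it was at least 11.6-fold higher in CD26- and 11.3-fold higher in CD26+ fibroblasts (adjusted p = 0.00107 and 0.000586), and all 4 calls were kept in all 22 alternatives. WB1P-Myc mouse 1 held only 1 count of it in CD26- fibroblasts. These are low levels, since the highest count in any library was 46.

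Ccl17 was higher in the CD26- fibroblasts of both tumor models, in which 5 of 5 pericyte markers (Rgs5, Kcnj8, Abcc9, Notch3 and Mcam) were called higher too. Of all genes, 35.4% were called in WB1P CD26- and 36.6% in WB1P-Myc CD26- fibroblasts, in either direction. The summed pericyte markers were 188 to 352 CPM in control, 1550 to 4862 CPM in WB1P and 2279 to 8634 CPM in WB1P-Myc CD26- sums, and their part in the CD26- changes of Ccl17, Ccl7 and Ccl11 was not tested. The control groups held at most 2 counts in any sum. Ccl17 was at 1.01, 0.670, 1.40, 0.921 and 1.48 CPM in WB1P CD26- mice 1 to 5 and at 0.296, 0.594, 1.75, 7.32 and 0.274 CPM in WB1P-Myc CD26- mice 1 to 5. All tumor mice were above all control mice, and WB1P-Myc mouse 4 stood far above the other 4. Its En1+ and double- libraries held 102 and 92 counts, so that both libraries of this mouse agreed. Against the floor Ccl17 was at least 10.3-fold higher in WB1P (adjusted p = 0.00371, edgeR) and 19.3-fold higher in WB1P-Myc (adjusted p = 0.00107), and without WB1P-Myc mouse 4 the fitted log2 FC of the latter went from 5.67 to 4.12 (adjusted p = 0.00214). Without control mouse 2 the fitted values were 5.61 for WB1P (adjusted p = 0.0118), in place of 4.76, and 6.52 for WB1P-Myc (adjusted p = 0.00448). In CD26+ fibroblasts Ccl17 was at 0.0996 to 0.724 CPM in WB1P and at 0.0468 to 0.414 CPM in WB1P-Myc, at most 9 counts a sum, and was not called (adjusted p = 0.162 and 0.23).

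RefSeq promoter windows (GRCm38.p6) were at hand for 5 of the 9 genes, and the 250 bases before the annotated start are printed for the 3 of them that were called in both tumor models. Capitals mark matches to the motifs of NF-kB, of STAT6 (TTCNNNNGAA), of GAS elements (TTCNNNGAA) and of the box at core promoters (TATAAA, called TATA below). Both strands were searched, also for the ISRE (GAAANNGAAA) and the AP-1 motif (TGANTCA).
Ccl20 (chr1:83116516-83116765, + strand): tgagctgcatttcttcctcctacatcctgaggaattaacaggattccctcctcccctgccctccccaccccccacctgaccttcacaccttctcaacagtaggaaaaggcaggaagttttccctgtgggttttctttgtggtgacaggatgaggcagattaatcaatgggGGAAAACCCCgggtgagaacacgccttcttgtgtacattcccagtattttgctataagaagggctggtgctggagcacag
Ccl17 (chr8:94810203-94810452, + strand): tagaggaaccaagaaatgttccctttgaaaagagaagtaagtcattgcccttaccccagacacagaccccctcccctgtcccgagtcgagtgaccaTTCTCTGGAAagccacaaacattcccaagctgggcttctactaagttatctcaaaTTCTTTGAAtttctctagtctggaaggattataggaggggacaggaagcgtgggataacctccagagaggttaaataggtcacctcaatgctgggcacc
Ccl8 (chr11:82114935-82115184, + strand): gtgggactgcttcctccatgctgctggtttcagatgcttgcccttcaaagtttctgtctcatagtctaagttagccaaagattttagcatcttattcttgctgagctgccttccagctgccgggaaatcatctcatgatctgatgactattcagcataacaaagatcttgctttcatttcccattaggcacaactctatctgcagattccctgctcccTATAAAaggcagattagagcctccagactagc
The Ccl20 window held 1 NF-kB match, 71 to 80 bases before the start, and 7.25% of the 32851 mouse promoter windows of this length held at least 1. The Ccl17 window held 1 STAT6 match (145 to 154 bases before the start) and 1 GAS match (91 to 99 bases before it), motifs found in 5.85% and 7.02% of all windows, and the matches did not overlap. The Ccl8 window held 1 TATA match 27 to 32 bases before the start (12.4% of all windows). ISRE and AP-1 matches, present in 2.98% and 6.75% of all windows, were not among the letters of these 3 windows.

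Ccl5, an attractant of T cells and monocytes, was high in single WB1P-Myc mice. In control it was at 0.145, 0.256 and 0.298 CPM in CD26- and at 0.0396, 0.113 and 0.290 CPM in CD26+ fibroblasts. In WB1P-Myc it was at 2.59, 0.231, 24.6, 0.830 and 44.6 CPM in CD26- and at 0.327, 0.141, 3.33, 0.690 and 53.2 CPM in CD26+ mice 1 to 5. Mouse 5 was therefore highest in both classes, mouse 3 second in both, and mouse 2 lay inside the control range in both. All 4 libraries of mouse 5 carried the transcript (390 counts in En1+, 587 in double-, 551 in CD26+ and 620 in double+), as did the double- library of mouse 3 (351 counts). The log2 FC was 5.93 (SE 2.04, adjusted p = 0.0272, edgeR) in CD26- and 6.19 (SE 2.12, adjusted p = 0.028) in CD26+ fibroblasts. In limma with the mouse as a block they were 3.52 (adjusted p = 0.184) and 3.42 (adjusted p = 0.291), where the test changed along with the block. Without WB1P-Myc mouse 5 the edgeR values were 4.87 (adjusted p = 0.0235) and 2.79 (adjusted p = 0.177). Without both 8x8 mice the CD26+ value was 2.97 (adjusted p = 0.178). Leaving out any 1 of the control mice 1, 2 and 3 also ended both calls, with adjusted p of 0.0917, 0.0879 and 0.0889 in CD26- and of 0.0947, 0.0954 and 0.0814 in CD26+ fibroblasts. In WB1P mice 1 to 5 Ccl5 was at 0.0775, 5.63, 0.350, 0.307 and 1.55 CPM in CD26- fibroblasts, with mouse 2 apart, and at 0.219 to 2.09 CPM in CD26+ fibroblasts, and it was not called (adjusted p = 0.264 and 0.361).

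Ccl22, which shares the receptor Ccr4 with Ccl17, was not called in any comparison and appeared in single libraries that lacked the En1 label. In WB1P mouse 5 it had 82 counts in double- and 31 in CD26+ cells, both sorted as GFP-, against 7 in En1+ and 2 in double+ cells. In WB1P-Myc mouse 5 it had 62 counts in double- and 91 in CD26+ cells, against 1 in En1+ and 0 in double+ cells. The double- library of WB1P-Myc mouse 3 held 56 counts, and no other library held more than 14. Of 19 pairs of libraries that differed only in the En1 sort, Ccl22 was higher in the GFP- library in 15, but only 2 pairs were above the floor in both libraries. This count was not particular to Ccl22. It was 15 for Ccl25 too, 13 each for Ccl2, Ccl5 and Ccl7, 12 each for Ccl11 and Ccl17, 9 for Ccl8 and 6 for Ccl20. The log2 FC over control was 2.86 (95% interval -0.72 to 6.45) in WB1P CD26-, 1.25 (-2.34 to 4.84) in WB1P CD26+, 3.67 (0.01 to 7.33, adjusted p = 0.106) in WB1P-Myc CD26- and 2.44 (-1.01 to 5.89) in WB1P-Myc CD26+ fibroblasts, and DESeq2's Wald test called the third (adjusted p = 0.0442).

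**Figure D3:**
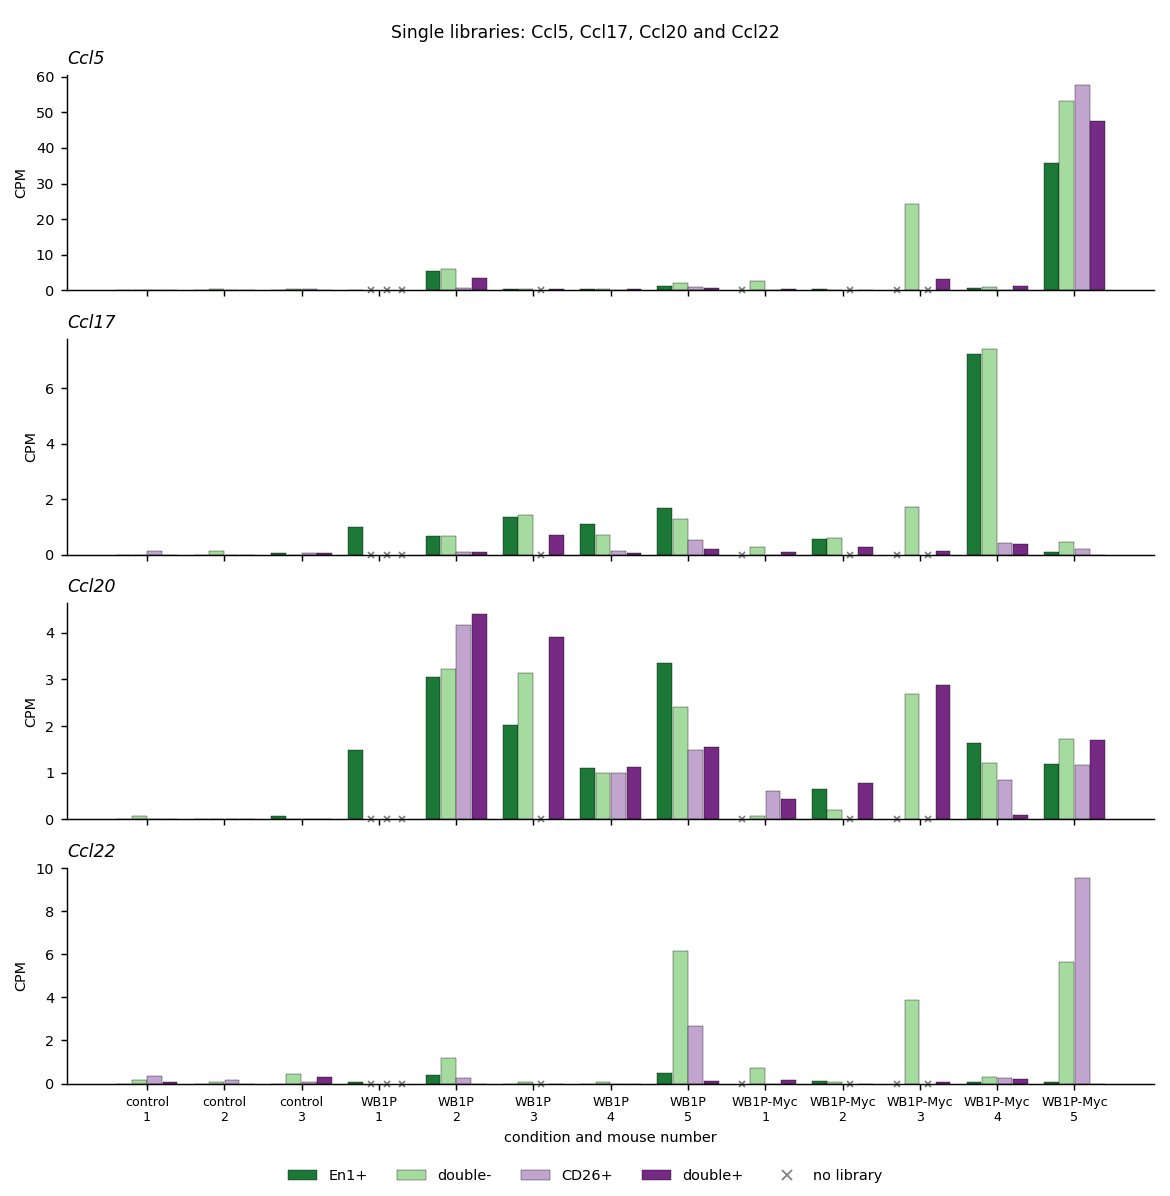
CPM (y axes, linear) of Ccl5, Ccl17, Ccl20 and Ccl22 in each of the 44 libraries, by condition and mouse (x axis), with bars colored by sorted population and crosses where a mouse gave no library. Ccl5 stands out in all 4 libraries of WB1P-Myc mouse 5, Ccl17 in both CD26- libraries of WB1P-Myc mouse 4, and Ccl22 in GFP- libraries (double- and CD26+) of WB1P mouse 5 and WB1P-Myc mice 3 and 5.

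The markers of other cells in these libraries were uneven. WB1P-Myc mouse 5, highest for Ccl5, held summed macrophage and monocyte markers of 50.1 CPM in CD26- and 23.3 CPM in CD26+ fibroblasts. In CD26- fibroblasts WB1P-Myc mouse 3, with Ccl5 at 24.6 CPM, held 81.6 CPM, and WB1P-Myc mouse 1, with Ccl5 at 2.59 CPM, held 118 CPM. The double- libraries of WB1P mouse 5 and WB1P-Myc mouse 3, which carried Ccl22, held 1910 and 1166 macrophage and 518 and 178 neutrophil marker counts. The double- library of WB1P-Myc mouse 5 held 610 and 106, and its CD26+ library, with the highest Ccl22 count, held 248 and 2. Of the lymphocyte markers, Cd3e had a mean of 71.1 CPM in WB1P-Myc CD26+ and 67.2 CPM in WB1P CD26+ fibroblasts, but Cd3d and Cd3g had means of at most 0.0484 and 0.155 CPM in any group. The summed dendritic markers (6 genes, 4 to 6 of them with counts in each group) were 19.1 to 59.6 CPM in control and 8.90 to 32.7 CPM in tumor sums, and of the 3 tested 1 was called higher in WB1P CD26-, 1 higher and 1 lower in WB1P CD26+, 2 higher and 1 lower in WB1P-Myc CD26- and 1 lower in WB1P-Myc CD26+ fibroblasts. Of all genes, 35.4%, 33.5%, 36.6% and 34.7% were called in these comparisons, in the same order. Among the macrophage and monocyte markers, 5 of 10 were called higher in WB1P CD26-, and 3 higher and 1 lower in WB1P CD26+. In WB1P-Myc, 7 were called higher in CD26-, and 3 higher and 1 lower in CD26+ fibroblasts. The part of such cells in the values of the 9 genes was not tested. Without the 4 libraries with most counts of macrophage and neutrophil markers (1070 to 2428), an alternative added after the data were seen, 4 and 4 of the 9 genes were called in WB1P CD26- and CD26+, and 5 and 5 in WB1P-Myc CD26- and CD26+ fibroblasts (of all genes 35.8%, 33.8%, 30.2% and 34.5% were called). This removed WB1P-Myc mice 1 and 3 from the CD26- group, since each had only its double- library there. It kept all libraries of WB1P-Myc mouse 5, so these counts cannot show the part of such cells.

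Ccl25, known from thymus and gut, was low in all groups. It ranged from 3.44 to 9.35 CPM in the 6 control sums, from 2.33 to 6.18 CPM in the 9 WB1P sums and from 2.52 to 4.88 CPM in the 10 WB1P-Myc sums. Its log2 FC over control lay between -0.52 (95% interval -1.22 to 0.18, WB1P CD26-) and -0.73 (-1.43 to -0.03, WB1P-Myc CD26-, adjusted p = 0.0933, edgeR), and none was called. Without control mouse 2 the last became -0.96 (adjusted p = 0.0428). The annotated gene has 2 start sites in RefSeq and spans chr8:4325210-4360020, far longer than the other 8 genes, and reads of its forms cannot be told apart here.

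By count, 3 of the 9 genes were called higher and 1 lower in WB1P CD26- fibroblasts (35.4% of all genes tested were called, in either direction), and 4 were called higher in WB1P CD26+ fibroblasts (33.5% of all genes). In WB1P-Myc, 5 were called higher in CD26- (36.6% of all genes) and 5 in CD26+ fibroblasts (34.7% of all genes). Read against these shares of all genes, the counts are no result about the 9 genes as a group. Their median log2 FC was 1.47, 2.29, 1.74 and 2.30 in these comparisons, or 1.68 in place of 2.29 with Ccl17 and Ccl20 set to their bounds, and the median over all genes lay between -0.01 and 0.02. The 4 comparisons share their control sums by class.

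None of the 9 genes was called between WB1P-Myc and WB1P fibroblasts in edgeR's test, in which 0.512% of all genes were called in CD26- and 0% in CD26+ fibroblasts. At an unadjusted p under 0.05 there was 1 of the 9 in each class, Ccl5, with log2 FC of 3.17 (95% interval 0.33 to 6.01, adjusted p = 0.286) and 3.66 (0.37 to 6.95, adjusted p = 1). DESeq2 called 0 of the 9 in both classes, and 411 and 9 of all genes. Over all genes 646 had an unadjusted p under 0.05 in the CD26+ comparison. For the abundant genes the interval of the difference in CD26- fibroblasts was -0.46 to 1.17 for Ccl2, -0.57 to 1.07 for Ccl7, -0.61 to 1.40 for Ccl8 and -0.10 to 1.13 for Ccl11, so that sizeable differences were not shown to be absent.

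Within tumors, the 4 abundant chemokines stood higher in the CD26+ CAFs of a mouse than in its CD26- CAFs. Tumor CD26- sums also held far more of the pericyte markers (values below), and the part of these cells in the ratios was not tested. Ccl2 was higher in the CD26+ cells of all 12 mice that gave both classes, by 1.55- to 1.99-fold in control, 2.37- to 4.88-fold in WB1P and 1.3- to 3.68-fold in WB1P-Myc. Ccl7 was also higher in all 12 mice, by 1.11- to 2.11-fold, 1.95- to 5.73-fold and 1.13- to 3.95-fold. Ccl8 was higher in 2 of 3 control mice and in 9 of 9 tumor mice, by 1.10- to 4.67-fold in WB1P and 1.82- to 5.49-fold in WB1P-Myc. Ccl11 was higher in 1 of 3 control mice, where the ratio was 0.677 to 1.01, and in 9 of 9 tumor mice, by 1.67- to 2.98-fold in WB1P and 1.19- to 3.41-fold in WB1P-Myc. In WB1P, 4 of the 9 genes were called higher in CD26+ fibroblasts (26% of all genes were called), and these were Ccl2 (log2 FC 1.92, SE 0.42, adjusted p = 0.00172, edgeR), Ccl7 (1.70, SE 0.42, adjusted p = 0.00478), Ccl8 (1.62, SE 0.51, adjusted p = 0.0231) and Ccl11 (1.09, SE 0.31, adjusted p = 0.0123). Without WB1P mouse 4 or 5 the adjusted p was 0.11 or 0.0524 for Ccl8 and 0.0556 or 0.0611 for Ccl11, and without mouse 1 or 3 it was 0.0595 or 0.106 for Ccl8.

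In WB1P-Myc, 1 of the 9 genes was called higher in CD26+ fibroblasts and 1 lower (20% of all genes were called). Ccl2 had a log2 FC of 1.13 (SE 0.40, adjusted p = 0.0486, edgeR), which was lost in 16 of 22 alternatives, among them the leaving out of any 1 of 10 mice (the 3 control mice, WB1P mice 3, 4 and 5 and WB1P-Myc mice 1 to 4), with adjusted p up to 0.212. Ccl7 (log2 FC 1.10, adjusted p = 0.0549), Ccl11 (0.82, adjusted p = 0.0542) and Ccl8 (1.21, adjusted p = 0.0863) missed the threshold. Because both classes came from the same mouse, the mouse was also fitted as a block, and 6 of the 9 genes were then called, as were 32.2% of all genes: Ccl2, Ccl7 (1.21, adjusted p = 0.00394), Ccl8 (1.47, adjusted p = 0.00342), Ccl11 (0.88, adjusted p = 0.00258), Ccl17 and Ccl5 (-1.28, adjusted p = 0.0481). Without WB1P-Myc mouse 5, in which the classes differed least for Ccl2 and Ccl7, Ccl7, Ccl8 and Ccl11 were called without a block as well (adjusted p = 0.0256, 0.0199 and 0.041), and Ccl7 also without control mouse 3 (adjusted p = 0.0435).

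Ccl17 had the opposite order, lower in the CD26+ cells of 9 of 9 tumor mice. Both classes held more than 3 counts in only 2 of 4 WB1P and 2 of 5 WB1P-Myc mice, so that the order in the others rests on few counts. Ccl17 fell by 3.37 on the log2 scale in WB1P-Myc (SE 0.83, adjusted p = 0.00514, edgeR), or by 2.38 (adjusted p = 0.0365) without mouse 4, and without both 8x8 mice the call was lost (-2.48, adjusted p = 0.0635). In WB1P the log2 FC was -2.07 (SE 0.90, adjusted p = 0.095), and -2.14 (adjusted p = 0.00807) with the mouse as a block, and -2.07 (adjusted p = 0.0281) without WB1P-Myc mouse 4. Pericyte markers moved with the CD26 class too. Their sum was 1550 to 4862 CPM in WB1P CD26- against 129 to 292 CPM in WB1P CD26+ sums, and 2279 to 8634 CPM against 122 to 257 CPM in WB1P-Myc, and their part in the Ccl17 values was not tested.

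**Figure D4:**
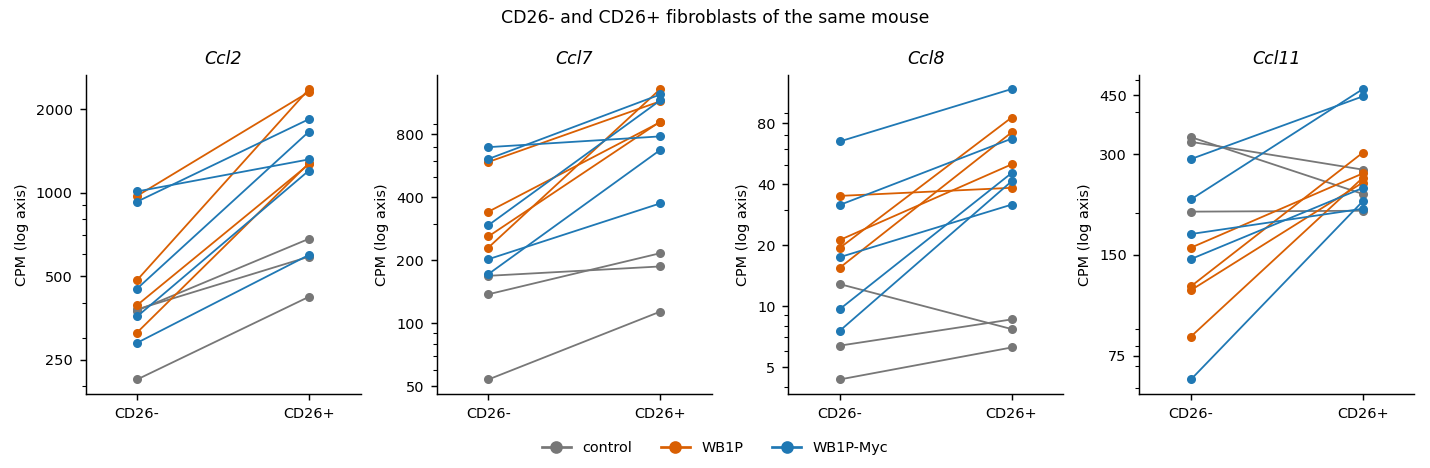
CPM (y axis, log scale) of Ccl2, Ccl7, Ccl8 and Ccl11 in the CD26- and CD26+ fibroblasts (x axis) of each of the 12 mice that gave both, with 1 line per mouse colored by condition. All 12 lines of Ccl2 and of Ccl7 go up, and for Ccl11 the 9 tumor lines go up while 2 of 3 control lines go down.

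In control glands none of the 9 genes was called between CD26+ and CD26- fibroblasts in edgeR's test (4.17% of all genes were called), with 0 at an unadjusted p under 0.05 and 0 in DESeq2. Ccl2 still did not overlap between the classes (212 to 379 CPM against 421 to 681 CPM), with a log2 FC of 0.81 (95% interval -0.25 to 1.86). Whether the tumor change itself differed between the classes was tested as an interaction. None of the 9 genes was called for WB1P (1.86% of all genes) or WB1P-Myc (1.16% of all genes), with 1 at an unadjusted p under 0.05 in each and 0 in DESeq2. In both it was Ccl11, with a difference of 1.40 (95% interval 0.38 to 2.42, adjusted p = 0.172, edgeR) for WB1P and of 1.12 (0.12 to 2.13, adjusted p = 0.417) for WB1P-Myc on the log2 scale. With the mouse as a block the WB1P difference of Ccl11 was 1.45 (adjusted p = 0.0186), and in a fit on the 4 groups compared it was called too (adjusted p = 0.0278). For Ccl2, Ccl7 and Ccl8 the WB1P differences were 1.12 (-0.24 to 2.48), 1.17 (-0.20 to 2.55) and 1.68 (-0.02 to 3.39), so that the larger changes in CD26+ fibroblasts were not shown to differ from those in CD26- fibroblasts.

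Libraries of cells with and without the En1 label were close to each other for the abundant genes. Over the 19 pairs of libraries of 1 mouse and CD26 class that differed only in the En1 sort, the larger CPM exceeded the smaller by a median of 1.11-fold for Ccl2 (at most 1.37), 1.10-fold for Ccl7 (1.31), 1.23-fold for Ccl8 (1.95) and 1.13-fold for Ccl11 (1.45). The coefficient of variation over mice in WB1P-Myc CD26- fibroblasts was 55.5% for Ccl2, 61.2% for Ccl7, 90.1% for Ccl8 and 47.2% for Ccl11, against 135% for Ccl5 and 147% for Ccl17. In WB1P CD26+ fibroblasts it was 34.1% for Ccl2, 18.1% for Ccl7, 34.5% for Ccl8 and 9.36% for Ccl11, and in control CD26+ fibroblasts 23.4%, 30.7%, 15.8% and 14.4%.

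Over the 25 sums, which share mice, libraries and conditions, the levels of Ccl2, Ccl7 and Ccl8 ran together, with Spearman's rho of 0.90 for Ccl7 and Ccl8, 0.88 for Ccl2 and Ccl7 and 0.80 for Ccl2 and Ccl8. The lowest rho among the 9 genes was -0.53, between Ccl11 and Ccl17. Of all genes tested, those most like Ccl2 included Csf2 (rho 0.92) and Ptx3 (0.92), which encode a myeloid growth factor and a pentraxin. Those most like Ccl7 were Rnd1 (0.96), Mcub (0.95) and Ier3 (0.95), and those most like Ccl8 were Serpinb1b (0.92), Reep5 (0.92) and Lgals3 (0.92). Ccl11 was most like Mgst1 (0.82), Prps1 (0.81) and Stn1 (0.81), Ccl17 like Psrc1 (0.94), Cdh3 (0.92) and D430020J02Rik (0.91), and Ccl20 like Wt1 (0.89), Plaa (0.89) and Il18rap (0.89). The genes most like Ccl5 were Laptm5 (0.86), a gene of hematopoietic cells, Ccl4 (0.84) and Rgs1 (0.84), and those most like Ccl22 were St8sia4 (0.78), Lrrc25 (0.74) and Dock2 (0.74). Ccl25 was most like Axin1 (0.84), Rnf24 (0.79) and Cacul1 (0.78).

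Of 15 other CC chemokines, 7 passed the filter, and Ccl9, a myeloid attractant, was the 1 called higher than control in all 4 tumor comparisons. Its mean was 0.475 CPM in control CD26- fibroblasts against 4.17 CPM in WB1P (log2 FC 3.13, SE 0.79, adjusted p = 0.00381, edgeR) and 17.0 CPM in WB1P-Myc (5.13, SE 0.85, adjusted p = 0.000107), and 0.362 CPM in control CD26+ fibroblasts against 3.05 (3.05, SE 0.83, adjusted p = 0.00788) and 4.31 CPM (3.56, SE 0.82, adjusted p = 0.00247). Ccl3 and Ccl4, attractants of macrophages and T cells, were called higher in WB1P-Myc CD26- fibroblasts alone, where single mice set the mean. Ccl3 ranged there from 0.148 to 126 CPM with a median of 0.716 CPM (adjusted p = 0.00692), and Ccl4 from 0.0330 to 55.9 CPM with a median of 0.490 CPM (adjusted p = 0.01). All 3 were called lower in CD26+ than in CD26- WB1P-Myc fibroblasts (20% of all genes were called), where the CD26- means of Ccl3 and Ccl4 rest on the same single mice. None was called between the classes in WB1P or control.

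Of 15 CC chemokine receptors, 9 passed the filter. The atypical receptors Ackr1, Ackr2 and Ackr4, which bind chemokines without the usual signal, were called higher in CD26+ than in CD26- fibroblasts of both tumor models, with log2 FC of 4.56, 5.47 and 2.62 in WB1P and of 3.31, 4.09 and 4.19 in WB1P-Myc. In each model 1 receptor was called lower, and 26% and 20% of all genes were called. Control glands already had 2 of the receptors called higher in CD26+ fibroblasts (4.17% of all genes were called). Ackr2, known as a scavenger of inflammatory CC chemokines, had a mean of 10.5 CPM in control CD26-, 0.699 CPM in WB1P CD26- and 2.55 CPM in WB1P-Myc CD26- fibroblasts, with a log2 FC over control of -3.82 (SE 0.53, adjusted p = 1.09e-05, edgeR) and of -2.01 (SE 0.48, adjusted p = 0.00284). In CD26+ fibroblasts it was at 64.6, 32.7 and 44.6 CPM in control, WB1P and WB1P-Myc and was not called between them. Ackr1 fell by 2.38 in WB1P CD26- (adjusted p = 0.000405) and Ackr4 by 1.98 in WB1P-Myc CD26- fibroblasts (adjusted p = 0.00622). Ccr1 was called higher than control in all 4 tumor comparisons, with means of 0.202 CPM in control CD26-, 4.61 CPM in WB1P CD26- and 1.75 CPM in WB1P-Myc CD26- fibroblasts. By count, 2 receptors were called higher and 3 lower in WB1P CD26-, 2 higher in WB1P CD26+, 3 higher and 2 lower in WB1P-Myc CD26- and 1 higher in WB1P-Myc CD26+ fibroblasts, where 35.4%, 33.5%, 36.6% and 34.7% of all genes were called. Ccr6, the receptor of Ccl20, had means of at most 0.07 CPM and Ccr4, the receptor of Ccl17 and Ccl22, of at most 0.05 CPM in any group, and both were filtered out (these receptors were named after their values were seen).

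All 19 receptors and transcription factors of pathways known to induce CC chemokines were tested. Against control, 4 were called higher and 1 lower in WB1P CD26-, 4 higher in WB1P CD26+, 5 higher and 1 lower in WB1P-Myc CD26- and 6 higher in WB1P-Myc CD26+ fibroblasts, at or below the shares of all genes just given, and the median log2 FC of the list was 0.16 to 0.21 in WB1P and 0.15 to 0.18 in WB1P-Myc. Tnfaip3, a feedback inhibitor of NF-kB, was at 105 ± 13.0 CPM (SD, n = 3) in control CD26- and at 520 ± 45.9 CPM (n = 5) in WB1P CD26- fibroblasts (log2 FC 2.31, SE 0.32, adjusted p = 1.14e-05, edgeR), and was called higher in all 4 tumor comparisons. Il13ra1, a subunit of the receptor for interleukins 4 and 13, rose from 13.0 ± 1.28 CPM in control CD26- to 191 ± 15.3 CPM in WB1P CD26- fibroblasts (log2 FC 3.88, SE 0.26, adjusted p = 9.88e-10) and was likewise called in all 4. The transcription factor genes Rela, Relb, Nfkb1, Nfkb2 and Stat6 were called in none (these 5 were named after their values were seen).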

How the data were processed

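Fibroblasts were sorted from control glands and from WB1P and WB1P-Myc tumors of En1-Cre;mTmG mice, and their mRNA was sequenced. The authors deposited 1 table of raw read counts per gene for the 44 libraries, without normalization. HISAT2 2.2.1 and GRCm38 are named in the submitters' processing notes, and the counter and the annotation are not given in the sources used here. Exon lengths came from GENCODE. The row that names no gene held 0 counts and was left out.

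Counts of the 1 or 2 libraries of a mouse and CD26 class were summed to 25 values. Genes were filtered with filterByExpr, scaled by TMM, fitted over 6 groups and tested with edgeR 4.0.16 (quasi-likelihood, R 4.3.3), with Benjamini-Hochberg adjustment over 16601 genes. A call was an adjusted p under 0.05, with no minimum fold. The SE is the absolute log2 FC divided by the root of F, and the 95% intervals use the t quantile of the fit. Where every sum of a group held 3 counts or fewer, the group was at the floor. The bounds written "at least" divide the mean CPM of the other group by the mean CPM of 3 counts in the group at the floor. They cover counting error only, and the adjusted p beside them belongs to the fitted log2 FC. CPM correlations are Spearman's rho over the 25 sums. DESeq2 1.42.0 and limma 3.58.1 served as alternatives. Further ones were other size factors, no filter, only the groups compared, no 8x8 mice, libraries of 1 En1 sort, and each mouse left out in turn. For the mouse as a block, conditions were compared with limma (voom, duplicateCorrelation), so that the test changed along with the block. CD26 classes and interactions were fitted with edgeR and the mouse as a fixed factor, over the 12 mice with both classes. CD26- and CD26+ sums of 1 mouse are paired because they come from the same animal, and their deviations from the group means correlated at 0.237 to 0.668 (median 0.444) in all 12 pairs. No batch is named in the labels, and no 2 libraries of a population and condition agreed within counting noise (63 pairs).

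The 9 genes, the gene lists and the tests were chosen with earlier results of these data known. Values are given for all 9 genes, for up to 4 members of each list by the smallest adjusted p in the comparison described, and for the 3 genes most like each of the 9. Some of the genes this rule names are not reported here. The fitting steps were tested on simulated data with known changes.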

Additional observations from a re-analysis of the deposited data

Results flagged for a closer look

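Of 36 groups of 4 or 5 mice tested for a mouse far from the others, 6 held one by Dixon's test. Its chance rate of about 1 in 20 holds for normally distributed values. Here CPM were not transformed, the rare genes had few counts in most mice, and groups shared mice, so the 6 cannot be set against that rate. All 6 concerned Ccl5, Ccl17 and Ccl22, 3 of the 5 rare genes. Ccl5 was at 5.63 CPM in WB1P CD26- mouse 2, against 1.55 CPM in the next mouse, and at 53.2 CPM in WB1P-Myc CD26+ mouse 5, against 3.33 CPM. Ccl17 was at 7.32 CPM in WB1P-Myc CD26- mouse 4, against 1.75 CPM in the next mouse. Ccl22 was at 3.29 CPM in WB1P CD26- mouse 5 (next 0.804 CPM), at 1.28 CPM in WB1P CD26+ mouse 5 (next 0.149 CPM) and at 4.14 CPM in WB1P-Myc CD26+ mouse 5 (next 0.230 CPM). WB1P-Myc CD26- mice 3 and 5 were both high for Ccl5 and Ccl22, so that neither mouse stood alone there. The cause of these single high mice was not tested.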

How the results depend on the processing

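Across the alternatives, 2151 log2 FC values of the 9 genes were recomputed. Of these, 61 lost and 24 gained a call, 2066 kept their side of the threshold (60 of them uncalled values that changed sign), and no called value reversed. With 1 mouse left out, 3 to 5 of the 9 genes were called in WB1P CD26- and 3 to 4 in WB1P CD26+ against control, 2 to 5 in WB1P-Myc CD26- and 3 to 5 in WB1P-Myc CD26+, 2 to 5 between the CD26 classes in WB1P and 1 to 5 in WB1P-Myc, and 0 elsewhere. Between the CD26 classes of WB1P-Myc, where 2 genes were called, 6 were with the mouse as a block, 4 with DESeq2's Wald test, 1 each with DESeq2's size factors, with no filter on low counts, without the 8x8 mice, in En1-negative libraries, in En1-positive libraries and without the libraries high in macrophage markers, and 0 in a fit on the groups compared. In WB1P-Myc against control, 3 genes were called in CD26- in limma with the mouse as a block and 3 in CD26+ without the 8x8 mice, in place of 5 each. The WB1P interaction gave 1 gene, Ccl11, with the mouse as a block and 1 in a fit on the groups compared. The block changed no other count by over 1.5 times. The cause of these moves was not tested, except that leaving out mice or libraries leaves fewer samples.

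Over all genes, the block raised the calls between the CD26 classes from 692 to 1918 in control and from 3326 to 5328 in WB1P-Myc, and those of the interactions from 309 to 851 in WB1P and from 193 to 523 in WB1P-Myc. A fit on the groups compared gave 2834 in place of 5566 calls in WB1P CD26+ against control, 202 in place of 692 between the classes in control, and 107 in place of 193 in the WB1P-Myc interaction. DESeq2's Wald test gave 646 and 414 in the interactions. En1-negative libraries alone gave 3463 in WB1P CD26+ against control, 2456 in place of 4312 between the classes in WB1P and 95 in the WB1P interaction, and En1-positive libraries alone gave 4007 in place of 6073 in WB1P-Myc CD26- against control, 1826 between the classes in WB1P-Myc and 66 in its interaction. Without the 8x8 mice the last 2 were 2016 and 125, and without the libraries high in macrophage markers 2063 and 94. The calls of WB1P-Myc against WB1P in CD26-, 85 in all, ranged from 6 to 411 over the alternatives.

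Control sums held at most 2 counts of Ccl17 and 1 of Ccl20, so that folds of these genes over control are bounds, and at most 7 counts of Ccl22. With 3 control mice in each class, every tumor comparison rests on few animals, and leaving out control mouse 3 ended calls of Ccl2, Ccl5, Ccl7 and Ccl8.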
